A study of Mus musculus with 24 samples.

Results

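The genes described here act in autophagy and in the lysosome. All rows whose Ensembl identifier carries 1 of 10 chosen symbols in GENCODE M21 were taken, which found 10 of 10 genes (Ulk1, Atg7, Map1lc3a, Map1lc3b, Gabarapl1, Sqstm1, Bnip3, Lamp2, Ctsl and Tfeb) among 22392 in the table. The choice used no measured value of this table in its rule, but it was made with earlier results of these data known. RNA was sequenced from 24 liver samples of CD2F1 mice, 8 in each of 3 groups; the labels do not say that each sample is a separate mouse, and "liver" below means 1 such sample. CT mice had a sham injection and no tumour. C26 mice carried a transplant of C26, a mouse colon carcinoma that is used as a model of cancer wasting, and had no treatment. C26-CHO mice bore this tumour as well, and their diet held 2% by weight of cholestyramine, a bile acid-binding resin that stays in the gut, from day 1 to day 10 after the cells were injected. Age, sex and tumour weight were not used here, and tumour-free mice fed the resin are not analysed here.

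Autophagy delivers cell contents to the lysosome for breakdown. A kinase complex around ULK1 starts a membrane sheet, and ATG7 activates small proteins of the LC3 and GABARAP family so that they can be joined to the lipid of that sheet. Receptors such as p62 (Sqstm1) and BNIP3 bind both cargo and the LC3 family, and the closed vesicle fuses with a lysosome, where LAMP2 lines the membrane and cathepsins cut proteins. TFEB is a transcription factor that raises many of these genes when it enters the nucleus. In the liver, autophagy is known for supplying amino acids and lipids during fasting and for clearing damaged mitochondria. Transcript levels do not measure the flow of material through the pathway.

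Libraries held between 19.9 M and 30.5 M reads, and the lowest count of any member in any library was 134 reads, for Tfeb. Along the first principal component of 14040 tested genes, which held 71.9% of the variance, CT livers lay from -83.15 to -75.36 and C26 livers from 28.81 to 54.62. The liver C26-CHO 1 stood apart from the rest of its group, at -13.41 against 22.32 to 50.48 in the other 7, and results that rest on it are given with and without it.

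Marker genes of liver cell types were followed in C26 against CT, where over all 14040 tested genes 66.3% were called, 33.3% higher and 32.9% lower. Of these markers, 9 of 11 macrophage genes were higher and 0 lower, and their summed value ran from 5848 to 8397 in CT, from 10149.8 to 12962 in C26 and from 9413 to 16606 in C26-CHO. Of 7 neutrophil markers 4 passed the filter and all 4 were higher, with sums of 39.9 to 80.2 in CT, 254 to 837 in C26 and 181 to 487 in C26-CHO. Endothelial markers were higher in 5 of 6 cases, with sums of 3050 to 4454, 4253 to 5882 and 3789 to 6165 in the same order. Hepatocyte markers were lower in 5 of 7 cases and higher in 1, and their sums were 1604538 to 1896182, 684586 to 861426 and 726245 to 870967. Of that sum, Alb held 1034282 ± 78170 in CT and 250837 ± 47463 in C26 (SD, n = 8). Serpina1a, not called, had 289387 ± 14681 and 288587 ± 23508, and Hnf4a was the 1 gene called higher (log2 difference 0.40). Stellate markers had 2 of 6 higher and 1 lower, with sums of 2698 to 3489.8, 2303 to 3469 and 1696 to 3767. Of the 5 cholangiocyte markers 4 passed the filter and 1 was higher, with sums of 72.4 to 99.8, 444 to 1188 and 178 to 770.2. That 1 gene, Sox9, carried the difference in the sum (38.0 ± 11.9 in CT and 616 ± 235 in C26, SD, n = 8), while Krt19 (-0.56), Krt7 (-0.23) and Epcam (-0.13, all log2 differences) were not called. Of 6 erythroid markers 5 passed the filter, 3 were higher and 1 lower, with sums of 11348 to 23433, 10727 to 28843 and 11358 to 29760.2. No marker was without reads in any group. In whole liver, fewer cells of a type and less RNA of these marker genes per cell cannot be told apart. The part of these markers in the results below was not tested.

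Levels are given as the deposited value, which is a library's read count divided by its size factor. To set genes beside each other, the value was divided by the kilobases of exon that GENCODE M21 gives over all transcripts of the gene, a length that can exceed the transcript in use. In CT livers Gabarapl1 was the most abundant member per kilobase, with 3791 (3141 to 4366), and no other member reached its range. Bnip3 followed with 1900.1 (1560.2 to 2147), then Sqstm1 with 1762 (1431 to 2134), Ctsl with 1454 (1115 to 1895) and Lamp2 with 1247 (1153 to 1326), and the ranges of each neighbouring pair among these overlapped. Map1lc3a with 473 (357 to 579.6), Ulk1 with 347 (241 to 446) and Map1lc3b with 268 (219 to 322) formed a lower level, again with overlapping neighbours. Atg7 with 124 (106 to 147) and Tfeb with 44.1 (36.6 to 57.0) were lowest and did not overlap each other. In C26 livers the order changed at the top. Ctsl led with 4057 (3588 to 4641) and did not overlap the next member, Sqstm1, with 1669 (1483 to 1915). Gabarapl1 came after Sqstm1 with 1360.1 (1195 to 1626). These orders depend on the exon length used. Before division, Lamp2 (mean 11912) and Ctsl (9433) stood above Gabarapl1 (7631) in CT, and Map1lc3b (2017) above Map1lc3a (559). In C26, Ctsl led before division too (26325), with Lamp2 next (11571).

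**Figure D1:**
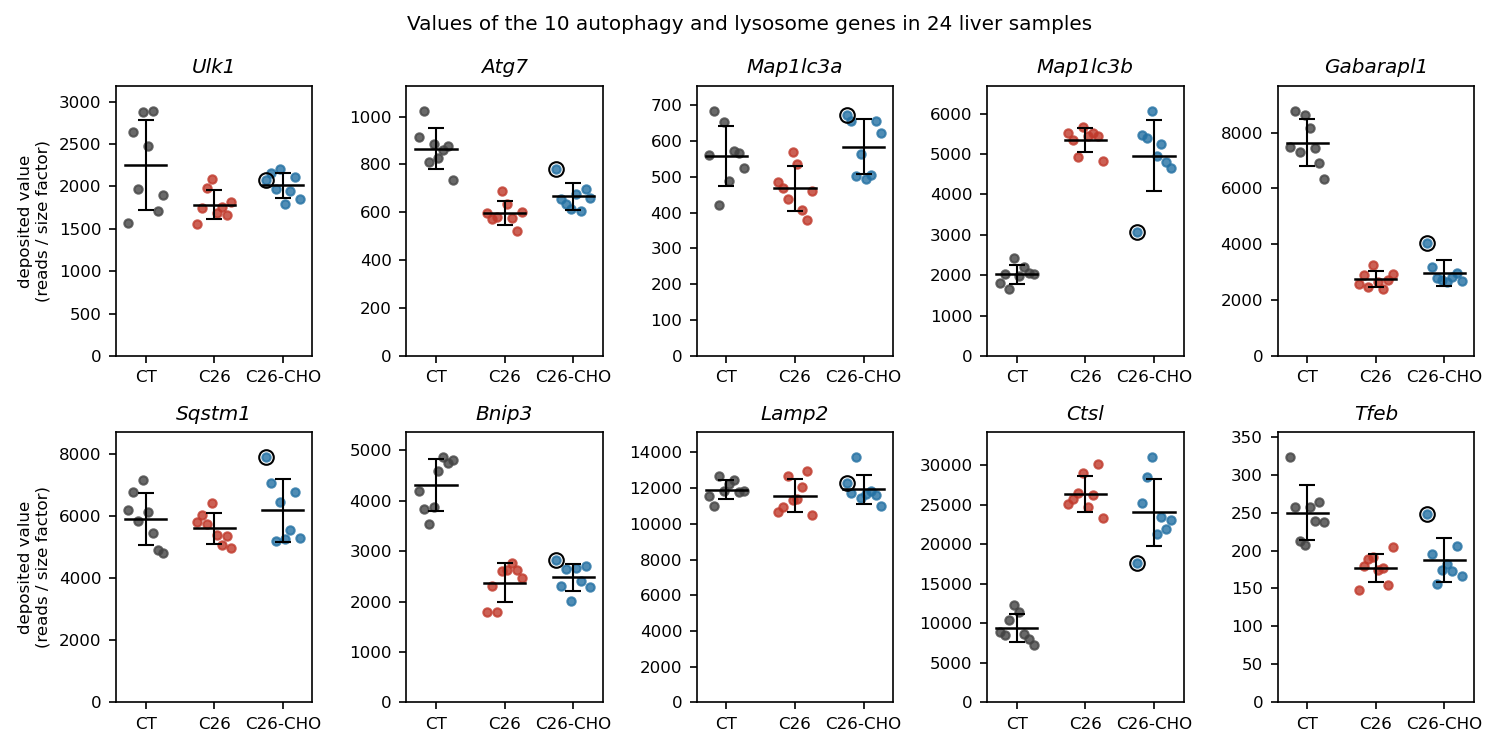
Deposited value (reads divided by size factor, linear axis from 0) of each gene in every liver. Points are liver samples, horizontal lines the mean of 8 samples and bars 1 SD; the ring marks C26-CHO 1. Map1lc3b and Ctsl are higher in every C26 liver than in every CT liver, and Gabarapl1, Bnip3, Atg7 and Tfeb are lower.

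How the tumour changed these genes in the liver was examined by C26 vs CT. The members did not move as a group. Map1lc3b, which encodes the LC3B protein of the vesicle membrane, and Ctsl, which encodes the lysosomal protease cathepsin L, rose, with means 2.65-fold and 2.79-fold those of CT. Gabarapl1, a relative of Map1lc3b, fell, with a mean 2.79-fold lower than in CT, and the mitochondrial receptor Bnip3 fell 1.82-fold. Atg7, Tfeb, Ulk1 and Map1lc3a fell by smaller amounts, while Sqstm1 and Lamp2 did not pass the test. In all, 2 of 10 members were called higher and 6 lower (limma, Benjamini-Hochberg adjusted p under 0.05 over 14040 genes). Across all tested genes 66.3% were called, 33.3% higher and 32.9% lower, so a count of 8 of 10 is read as near that share and not as a result about these genes. The median log2 difference was -0.28 over the members and 0.0056 over all tested genes. The 2 groups did not overlap for 6 of 10 members, against 35.0% of all genes.

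Ulk1 encodes the kinase that starts autophagy and lies on chromosome 5 at 110784488 to 110810097 (GRCm38, as for all positions here). Its values ran from 1565 through a median of 2224 to 2895 in CT, and from 1550.4 through 1752 to 2088 in C26. CT values showed a gap between a lower set of 4 samples (1565, 1704, 1897 and 1975) and a higher set of 4 (2474, 2639, 2877 and 2895), and the C26 livers overlapped only the lower set. This split was made after the values were seen and was not tested. Ulk1 fell by 0.31 on the log2 scale (SE 0.106, adjusted p = 0.0135), and under quantile normalization the difference was -0.14 with no call (adjusted p = 0.204). The coefficient of variation was 23.6% in CT, 9.77% in C26 and 7.33% in C26-CHO.

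Atg7 encodes the enzyme that activates the LC3 and GABARAP proteins and lies on chromosome 6 at 114643097 to 114860614. Its values ran from 737 through 868 to 1025 in CT and from 519.9 through 588 to 687 in C26. Every C26 liver was below every CT liver. The log2 difference was -0.54 (SE 0.0637, adjusted p = 4.69e-08).

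Among the LC3 and GABARAP genes, whose products coat the vesicle membrane and hold receptors to it, 1 member rose and 2 fell. Map1lc3b, on chromosome 8 at 121590361 to 121598760, ran from 1649.8 through 2019.5 to 2418 in CT and from 4838 through 5449 to 5677 in C26. The lowest C26 liver was thus above the highest CT liver, and the log2 difference was 1.41 (SE 0.0958, adjusted p = 1.80e-12). Gabarapl1, on chromosome 6 at 129533160 to 129542346, ran from 6323 through 7466 to 8789 in CT and from 2405 through 2679 to 3273 in C26. It was lower in every C26 liver, with a log2 difference of -1.48 (SE 0.0830, adjusted p = 4.77e-14).

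Map1lc3a encodes LC3A and lies on chromosome 2 at 155276297 to 155278073. It ran from 421 through 562 to 685 in CT and from 378 through 465 to 568 in C26. The groups overlapped over most of their range. The log2 difference was -0.25 (SE 0.0973, adjusted p = 0.0250), and the call was lost without CT 2 (-0.21, adjusted p = 0.0619), CT 4 (-0.22, adjusted p = 0.0566), C26 6 (-0.23, adjusted p = 0.0534) or C26 7 (-0.21, adjusted p = 0.0610).

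The opposite moves of Map1lc3b and Gabarapl1 can be read within each library, where the size factor cancels. The ratio of the Map1lc3b value to the Gabarapl1 value was 0.226 to 0.320 in CT, 1.64 to 2.30 in C26 and 0.758 to 2.24 in C26-CHO, where C26-CHO 1 had the lowest. This ratio was chosen after the values were seen and is given without a test. The family has further genes in the pathway lists: Gabarap rose by 0.36 (SE 0.0661, adjusted p = 2.94e-05) and Gabarapl2 fell by 0.42 on the log2 scale (SE 0.0560, adjusted p = 2.91e-07). Of the summed value per kilobase of these 5 genes, Gabarapl1 held 58.4% ± 2.14 in CT and 28.6% ± 2.13 in C26 (SD, n = 8). Map1lc3b went from 4.15% ± 0.444 to 14.99% ± 0.838, Gabarap from 23.6% ± 0.925 to 41.4% ± 1.85, Map1lc3a from 7.28% ± 0.741 to 8.32% ± 0.749 and Gabarapl2 from 6.57% ± 0.789 to 6.65% ± 0.384. The sum itself was 6485 ± 605 in CT and 4749.5 ± 322 in C26.

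**Figure D2:**
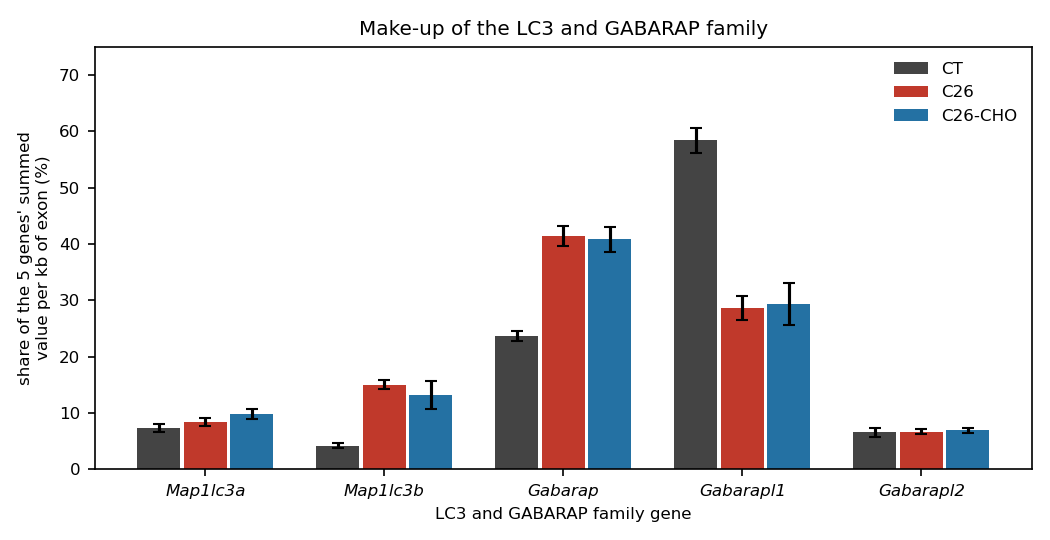
Share (%) of each LC3 and GABARAP family gene in the summed value per kilobase of exon of the 5 genes; bars are means of 8 samples and error bars 1 SD. Gabarapl1 holds 58.4% in CT and 28.6% in C26, and Gabarap holds the largest share in both tumour groups. That rank depends on the exon length used, 7517 bases for Map1lc3b and 1844 for Gabarap: before division by length Map1lc3b had the higher value in C26 (5341 against 3628).

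Of the receptors, Sqstm1, which encodes the ubiquitin-binding receptor p62 and lies on chromosome 11 at 50199366 to 50210827, ran from 4803 through 5997 to 7162 in CT and from 4976 through 5567 to 6428 in C26. All C26 values lay inside the CT range. Its log2 difference was -0.07 (95% interval -0.26 to 0.12, adjusted p = 0.512), and quantile normalization gave 0.21 with a call (adjusted p = 0.0219). Bnip3, which encodes a receptor on the outer mitochondrial membrane, lies on chromosome 7 at 138890836 to 138909519. It ran from 3534 through 4382 to 4864 in CT and from 1784 through 2539 to 2758 in C26, with no overlap, and the log2 difference was -0.87 (SE 0.0958, adjusted p = 1.30e-08).

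Of the lysosomal members, Lamp2, a membrane protein of the lysosome, lies on chromosome X at 38401357 to 38456454. It ran from 11014 through 11829 to 12669 in CT and from 10487 through 11358 to 12983 in C26. Its log2 difference was -0.04 (95% interval -0.15 to 0.06, adjusted p = 0.466), and quantile normalization gave 0.31 with a call (adjusted p = 0.000143). Values are per gene, so the splice forms of Lamp2 were not told apart. Ctsl lies on chromosome 13 at 64359337 to 64370890 and ran from 7232 through 8778 to 12294 in CT. In C26 it ran from 23283 through 26000.4 to 30116, above every CT liver, and the log2 difference was 1.498 (SE 0.107, adjusted p = 4.37e-12). The ratio of Ctsl to Lamp2 within a library was 0.612 to 1.04 in CT and 2.09 to 2.55 in C26, again chosen after the values were seen.

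Tfeb, on chromosome 17 at 47737030 to 47792419, had the lowest level of the 10. It ran from 207 through 248 to 323 in CT and from 148 through 178 to 204 in C26, where the highest C26 liver was just under the lowest CT liver. The log2 difference was -0.49 (SE 0.0936, adjusted p = 6.00e-05). A transcript level of Tfeb does not show how much of its protein is in the nucleus.

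**Figure D3:**
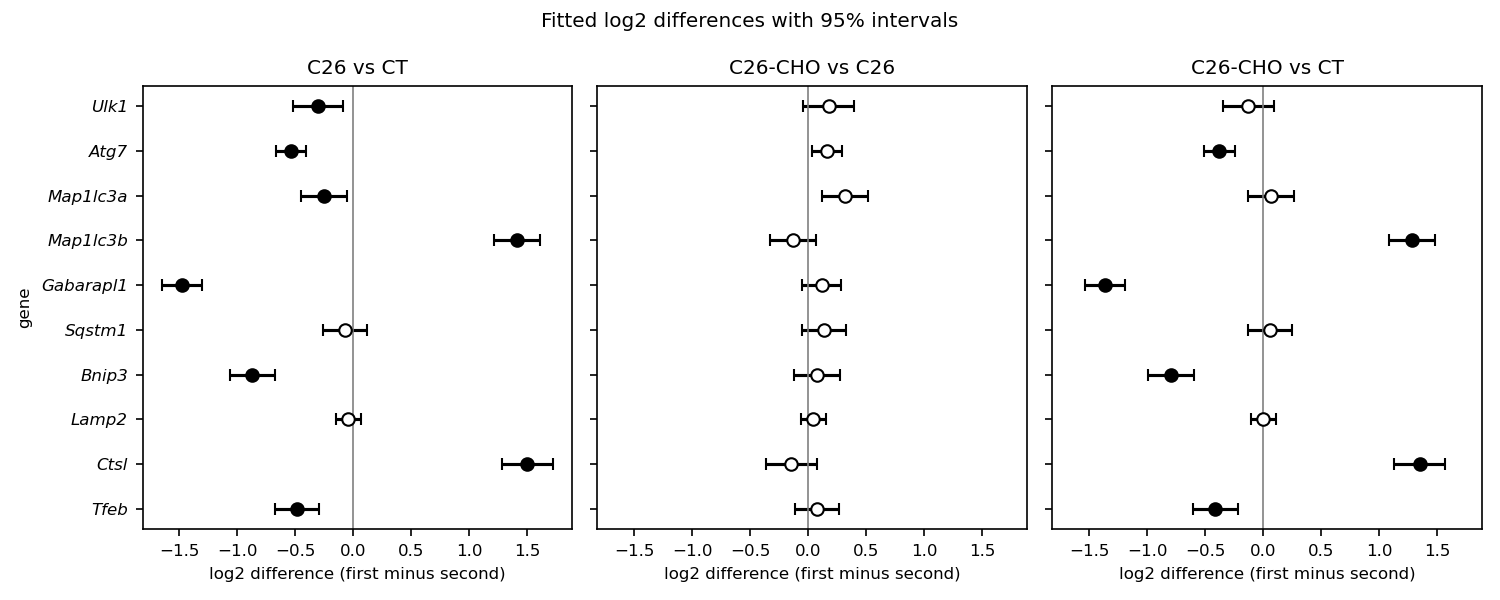
Fitted log2 difference of each gene in the 3 comparisons, first group minus second, with 95% intervals from limma; filled points were called at an adjusted p under 0.05. Map1lc3b and Ctsl lie to the right of 0 and Gabarapl1 and Bnip3 to the left against CT in both tumour groups. No gene was called in C26-CHO vs C26. Under quantile normalization, Sqstm1 and Lamp2 were called higher in both comparisons with CT.

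Promoter windows of the members were taken from a RefSeq table on GRCm38.p6, which held them for 9 of 10 members, all but Map1lc3a. The windows of the 2 largest rises and the 2 largest falls are shown because these 4 genes carry the split among the members. Each is the 250 bases before a RefSeq transcript start, 5′ to 3′ on the strand of the gene. Capitals mark matches to the E-box CACGTG or to the STAT-type letters TTCNNNGAA. The RefSeq start of Ctsl lies inside the gene as GENCODE draws it, so the window shown may not be its main promoter. The same holds for Atg7, whose only window lies inside its GENCODE gene, and for 2 of the 3 windows of Tfeb.
Map1lc3b, chr8:121590188-121590437, plus strand: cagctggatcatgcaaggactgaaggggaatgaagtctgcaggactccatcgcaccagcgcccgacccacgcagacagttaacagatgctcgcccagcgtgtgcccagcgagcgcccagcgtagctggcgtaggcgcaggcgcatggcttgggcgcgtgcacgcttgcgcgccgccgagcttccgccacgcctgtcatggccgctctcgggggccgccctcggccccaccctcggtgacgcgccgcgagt
Ctsl, chr13:64370521-64370770, minus strand: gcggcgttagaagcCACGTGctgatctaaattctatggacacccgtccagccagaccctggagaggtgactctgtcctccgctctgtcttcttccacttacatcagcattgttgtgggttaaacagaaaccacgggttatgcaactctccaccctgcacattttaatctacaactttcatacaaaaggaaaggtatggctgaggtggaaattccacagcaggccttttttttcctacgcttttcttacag
Gabarapl1, chr6:129532942-129533191, plus strand: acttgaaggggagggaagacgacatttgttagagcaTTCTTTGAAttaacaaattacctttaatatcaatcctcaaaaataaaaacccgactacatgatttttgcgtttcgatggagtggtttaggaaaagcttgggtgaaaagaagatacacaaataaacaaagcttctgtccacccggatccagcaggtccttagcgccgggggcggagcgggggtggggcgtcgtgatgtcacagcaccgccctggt
Bnip3, chr7:138909507-138909756, minus strand: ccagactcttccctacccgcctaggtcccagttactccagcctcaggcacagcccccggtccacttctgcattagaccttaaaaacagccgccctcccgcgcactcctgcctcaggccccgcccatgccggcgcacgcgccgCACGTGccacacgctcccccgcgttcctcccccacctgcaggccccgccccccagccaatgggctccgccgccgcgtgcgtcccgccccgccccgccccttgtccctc

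TFEB and its relatives are known to bind the CLEAR sequence, which is the E-box CACGTG with GT before it and AC after it. Both strands were searched in these 250 bases. A member counted where any of its windows matched, and Tfeb had 3 windows, whereas the background is a share of single windows. The E-box was found for 3 of 9 members, against 6.02% of 32851 windows in the table: in Ctsl, which rose, and in Bnip3 and Atg7, which fell, with the limit on the start given above for Ctsl and Atg7. The CLEAR letters were found for 0 of 9 members and in 0.240% of all windows. The letters TTCNNNGAA, which STAT proteins can bind, were found for 1 of 9 members, Gabarapl1, and in 7.02% of all windows. The FOXO letters GTAAACA, the antioxidant response letters TGACNNNGC and the CRE letters TGACGTCA were found for 0 of 9 members, against 3.17%, 10.2% and 1.55% of all windows. These matches are descriptions of letters, and the letters differed among members that moved the same way.

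The other genes of the pathway were followed in 9 lists of 132 genes, none of them a member and all of them tested. In C26 vs CT 43 were called higher and 52 lower, against 33.3% and 32.9% of all genes, and the median log2 difference was -0.04. Cathepsins stood with Ctsl: of 10, 8 were higher and 1 lower, with a median of 0.57 against 0.0056 over all genes. The largest were Ctsc, which encodes the protease cathepsin C, with 2.71 (SE 0.173, adjusted p = 5.50e-13), and Lgmn, which encodes the protease legumain, with 2.01 (SE 0.114, adjusted p = 5.17e-14). Levels of Ctsc went from 565 ± 148 to 3651 ± 811 and of Lgmn from 806 ± 76.8 to 3285 ± 592 (SD, n = 8). Ctso and Ctsz rose by 0.62 and 0.61. Macrophages are rich in cathepsins, and the macrophage markers given above rose in the same livers; their part in these values was not tested. Lysosomal hydrolases had 11 of 22 higher and 6 lower (median 0.16). Smpd1, which encodes acid sphingomyelinase, had 1.06, Gla, which encodes alpha-galactosidase, 0.86 and Man2b1, which encodes a mannosidase, -0.46 (adjusted p from 1.31e-11 to 1.04e-08).

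The counts of the next lists also stand beside 33.3% of all tested genes called higher and 32.9% lower. Lysosomal membrane genes had 2 of 12 higher and 5 lower (median -0.06). The 2 higher became 1 without CT 1, CT 2, CT 6, CT 7, C26 6 or C26 7, with no filter and with only the 2 groups in the fit, and 4 under quantile normalization, which left 4 lower. The cholesterol exporter Npc1 fell with -1.12, the calcium channel Mcoln1 with -0.52 and Cln3 with -0.71, whereas the tetraspanin Cd63 rose with 1.23. Of the proton pump (V-ATPase), which acidifies the lysosome, 5 of 16 were higher and 6 lower (median 0.0094). Atp6ap1 and Atp6v0e rose with 0.41 each and Atp6v1g1 with 0.29, while Atp6v1e1 fell with -0.32. Genes of fusion with the lysosome had 2 of 13 higher and 9 lower (median -0.15). Quantile normalization left 1 called higher and 4 lower, and 1 was called higher without CT 7 or CT 8. Stx17, the SNARE protein of the vesicle, fell with -0.45, its partner Snap29 with -0.33, and the tethering subunits Vps11 and Vps16 with -0.32 each.

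Initiation genes had 4 of 13 higher and 5 lower (median -0.05), where 33.3% of all tested genes were higher and 32.9% lower. Wipi1, which binds the lipid of the early membrane, rose with 0.71 (SE 0.0570, adjusted p = 3.68e-11) and Atg14, a subunit of the lipid kinase complex, with 0.49. Ulk2, the relative of Ulk1, fell with -0.44, and Pik3c3, the lipid kinase itself, with -0.39. Conjugation genes had 2 of 12 higher and 5 lower (median -0.13): besides Gabarap and Gabarapl2, Atg3, which acts after ATG7, fell with -0.43 and Atg16l1 rose with 0.52. Cargo receptors had 3 of 12 higher and 5 lower (median -0.04), which became 6 and 4 with a median of 0.12 under quantile normalization. Calcoco1 fell with -1.15, Optn with -0.79, the glycogen receptor Stbd1 with -0.74 and Bnip3l, the close relative of Bnip3, with -0.49. Genes of TFEB and mTORC1 control had 6 of 22 higher and 10 lower (median -0.11). Deptor, an inhibitor of the growth kinase mTOR, fell with -1.30 (SE 0.0816, adjusted p = 4.35e-13), the transcription factor Foxo3 with -1.11 and the mTORC1 inhibitors Tsc1 and Tsc2 with -0.61 and -0.58.

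**Figure D4:**
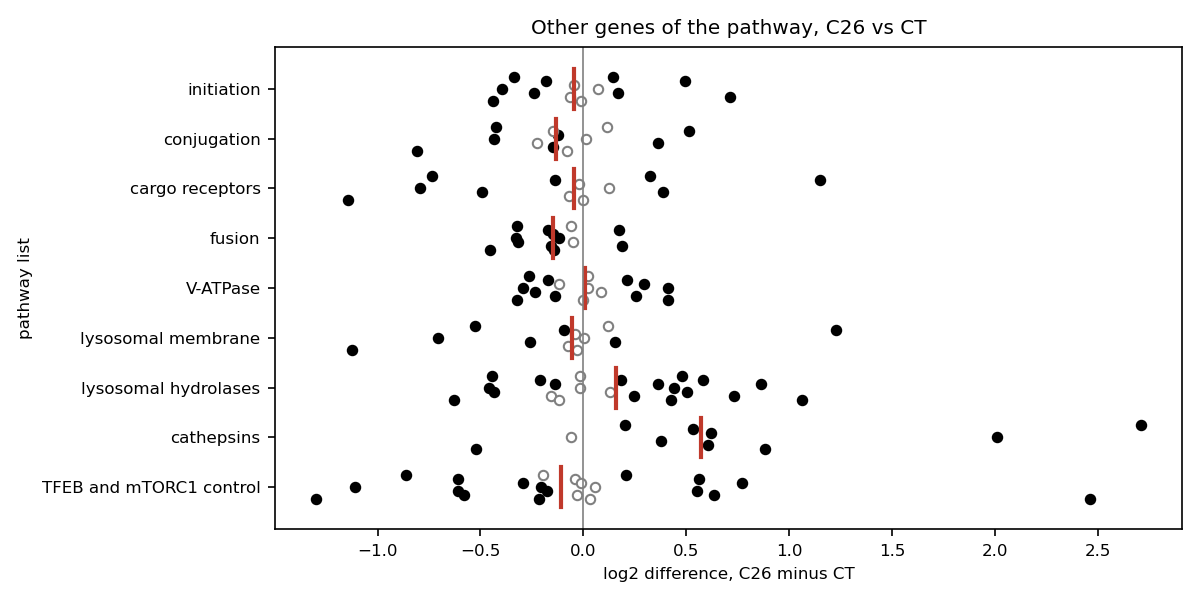
Log2 difference, C26 minus CT, of the 132 other pathway genes in 9 lists. Points are genes, filled where called at an adjusted p under 0.05, and red bars are list medians. Cathepsins have the highest median, 0.57; the median of the cargo receptors is -0.04 and turns to 0.12 under quantile normalization.

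What the resin changed in tumour mice was examined by C26-CHO vs C26. In limma 0 of 10 members were called, against 0.705% of all genes (0.556% higher and 0.150% lower), and so was none under edgeR or DESeq2. The groups overlapped for all 10, against 0.135% of all genes with no overlap. An unadjusted p under 0.05 was found for 2 members. Map1lc3a ran from 494 through 592 to 672 in C26-CHO, against 378 through 465 to 568 in C26. Its log2 difference was 0.32 (95% interval 0.12 to 0.52, unadjusted p = 0.00310 in limma, adjusted p = 0.121). Atg7 ran from 606 through 658 to 781, against 519.9 through 588 to 687, with 0.16 (95% interval 0.03 to 0.29, unadjusted p = 0.0192 in limma, adjusted p = 0.259).

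For the 4 members with the largest tumour differences, the fit allows only limited shifts with the resin. Map1lc3b had -0.13 (95% interval -0.33 to 0.07, adjusted p = 0.618) and Ctsl -0.15 (-0.37 to 0.07, adjusted p = 0.607). Gabarapl1 had 0.11 (-0.06 to 0.29, adjusted p = 0.606) and Bnip3 0.07 (-0.12 to 0.27, adjusted p = 0.813). Sqstm1 had 0.13 (-0.06 to 0.32), Ulk1 0.18 (-0.04 to 0.39), Tfeb 0.07 (-0.12 to 0.27) and Lamp2 0.04 (-0.06 to 0.15, or -0.05 under quantile normalization), with adjusted p from 0.516 to 0.808. A p that misses the threshold does not show that the resin had no effect on these genes.

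Of the 132 other pathway genes 1 was called higher and 0 lower, against 0.556% higher and 0.150% lower over all genes. This count is near that share and is not read as a result about the pathway. Uvrag, which encodes a subunit of the lipid kinase complex, had 726 ± 87.0 in untreated tumour mice and 908 ± 65.9 with the resin (SD, n = 8), with 0.33 (SE 0.0730, adjusted p = 0.0312). It had fallen by 0.34 in C26 vs CT. That contrast shares the C26 livers with C26-CHO vs C26, so the 2 differences are not independent. The call was lost with only these 2 groups in the fit (adjusted p = 0.0816) and for 7 of the 24 libraries left out, namely C26 1, 2, 4 and 7 and C26-CHO 6, 7 and 8, where the adjusted p ran from 0.0532 to 0.0868. DESeq2 kept Uvrag (adjusted p = 0.00409) and called 3 more of the 132 higher, 1 cargo receptor, 1 V-ATPase gene and 1 gene of TFEB and mTORC1 control. In limma, leaving out C26 5 or C26-CHO 4 added 1 higher call, leaving out C26-CHO 3 added 2, and leaving out C26-CHO 2 added 1 lower call.

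The liver C26-CHO 1 had the highest value of its group for 6 members, the lowest for 2 and a place between for Ulk1 and Lamp2. It had 3066 for Map1lc3b against 4661 to 6076 in the other 7 samples, 17637 for Ctsl against 21288 to 31025, and 4043 for Gabarapl1 against 2661 to 3171. Its values for these 3 genes lay between those of the CT and the C26 livers. For Sqstm1 it had 7899.7, above every one of the other 23 livers, and for Tfeb it had 248 against 157 to 205 in the other 7. Its summed macrophage markers were 14717, below the highest of its group (16606). Its neutrophil (181) and cholangiocyte (178) sums were the lowest of its group. Its hepatocyte (799302), endothelial (4142), stellate (2594) and erythroid (25625) sums lay inside the range of its group. The part of these markers in its values was not tested. Without it the log2 difference from C26 moved to -0.03 for Map1lc3b, -0.09 for Ctsl, 0.05 for Gabarapl1, 0.05 for Bnip3, 0.02 for Tfeb and 0.08 for Sqstm1, that of Map1lc3a to 0.29 (adjusted p = 0.238) and that of Atg7 to 0.13 (adjusted p = 0.515). Against CT the differences without it were 1.38 for Map1lc3b, 1.41 for Ctsl, -1.43 for Gabarapl1, -0.82 for Bnip3, -0.47 for Tfeb and -0.41 for Atg7.

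C26-CHO vs CT shares its tumour-free controls with C26 vs CT, so the 2 sets of values are given side by side and not as independent evidence. Of 10 members 2 were called higher and 4 lower, against 62.2% of all genes called (31.3% higher and 30.9% lower). The groups did not overlap for 4 members, against 25.2% of genes. Map1lc3b had 1.28 (SE 0.0958, adjusted p = 1.57e-11) beside 1.41 in C26 vs CT, and Ctsl 1.35 (SE 0.107, adjusted p = 4.32e-11) beside 1.498. Gabarapl1 had -1.36 (SE 0.0830, adjusted p = 3.33e-13) beside -1.48, and Bnip3 -0.79 (SE 0.0958, adjusted p = 7.86e-08) beside -0.87. Tfeb had -0.41 (adjusted p = 0.000462) and Atg7 -0.38 (adjusted p = 1.29e-05), and for both the ranges of C26-CHO and CT met only through C26-CHO 1 on the side of the tumour mice.

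Ulk1 and Map1lc3a, called lower in C26 vs CT, had -0.13 (adjusted p = 0.296) and 0.07 (adjusted p = 0.573) here. The contrast of the 2 tumour groups, given above, did not call either gene, so they are not shown to differ between those groups. Sqstm1 had 0.06 (adjusted p = 0.576) and Lamp2 0.00017 (adjusted p = 0.998), and under quantile normalization both were called higher, with 0.27 (adjusted p = 0.00383) and 0.26 (adjusted p = 0.00103). Of the other pathway genes 42 of 132 were called in each direction, with a median of -0.02. Cathepsins had 8 of 10 higher and 1 lower, with a median of 0.52.

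Within groups, the genes whose log2 values followed each member most closely over the 24 livers were found after the group means were taken out. For Map1lc3b these were Fbxo31 (r = 0.923) and the acute phase gene Hp (r = 0.918), which without C26-CHO 1 had 0.838 and 0.823. For Gabarapl1 they were Fam89a (r = 0.899) and Qdpr (r = 0.862), or 0.843 and 0.779 without that liver. They were for Map1lc3a Eif1 (r = 0.879) and Atp5d (r = 0.877), and for Sqstm1 the proteasome gene Psmd4 (r = 0.882) and Lgals9 (r = 0.881). Atg7 had Gba2 (r = 0.862) and Mzt2 (r = 0.848), Lamp2 Shoc2 (r = 0.860) and Eif5 (r = 0.837), and Ctsl Thsd1 (r = 0.799) and Tmem62 (r = 0.795). Tfeb had Vdac1 (r = 0.779) and Mbl2 (r = 0.776), or 0.696 and 0.695 without C26-CHO 1, Bnip3 had Ankrd12 (r = 0.761) and the clock gene Tef (r = 0.759), and Ulk1 had Zfp276 (r = 0.742) and Rnf144b (r = 0.741). Each is the highest of very many correlations, all values of a liver share its library and size factor, and no p is given.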

How the data were processed

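RNA was extracted from frozen livers with Trizol and treated with DNase I, and libraries followed Illumina protocols, per the labels' protocols. The submitters' processing notes name bcl2fastq 2.17, FastQC, Trimmomatic 0.38, STAR 2.6.1d, DESeq2 1.22.2 and the build GRCm38. How genes were counted, with which annotation and whether by strand, is not given in the sources used here. The authors deposited a normalized signal: each library's gene count divided by its size factor. Every value (100%, tolerance 0.001 of a read) divided by the lowest nonzero value of its library gave a whole number, so the read counts are known. No column was left unused.

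Strand use matters where genes overlap. In GENCODE M21, Sqstm1 shares 580 exon bases with Mrnip (mean value 37.5), Map1lc3b 58 with Zcchc14 (814), Gabarapl1 570 with 1700101I11Rik (1.24), and Ctsl 1742 and Bnip3 504 with antisense genes that have no row here. Ctsl shares 395 exon bases with the pseudogene Gm49230. Reads of overlapping genes cannot be told apart without strand.

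The test was limma 3.58.1 (R 4.3.3, trend), run for 14040 genes whose value averaged 10 or more over the 24 libraries, on log2 of the value plus 1, in 1 fit of 3 groups with no covariate. Fold changes are on that scale. A call is a Benjamini-Hochberg adjusted p under 0.05 within a contrast; adjusted p values are from limma unless another tool is named. Fold values in the text are ratios of group means. The alternatives were a replicate block, pseudocounts of 0.5 and 5, no filter, quantile and TMM scaling, 2 groups only, edgeR 4.0.16 and DESeq2 1.42.0 on the recovered counts, and leaving out each library. The limma and edgeR steps, but not DESeq2, were tested on simulated data. Few genes differed there, unlike C26 vs CT where 66.3% were called, so that test does not bear on the choice of scaling. Libraries of a group differed by more than counting noise (chi-square per degree of freedom 6.97 to 193.59 over 84 pairs), and were numbered as separate samples. The labels do not say that each is a separate mouse, so p-values measure the spread between these samples.

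The members, lists and tests were chosen with earlier results of these data known. Named are the 10 members, the 4 genes of each pathway list with the smallest p in C26 vs CT, genes of those lists called in C26-CHO vs C26, and for each member the 2 genes that correlate best with it within groups, among those averaging 50 or more and not carrying a predicted or clone name. Of the genes this rule names, 1 is not reported here. Marker lists covered hepatocytes, macrophages, neutrophils, endothelial, stellate, cholangiocyte and erythroid cells. RefSeq promoter windows matched members by symbol.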

Additional observations from a re-analysis of the deposited data

Results flagged for a closer look

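In 30 sets of 8 livers (10 genes in 3 groups), 2 held a liver whose distance from its nearest neighbour took an unusually large part of the whole range (above Dixon's 95% critical value). Chance flags about 1 in 20 such sets. Both were in C26-CHO 1. Its Gabarapl1 value of 4043 lay above the other 7 livers of its group (2661 to 3171), with a gap of 0.631 of the range. Its Map1lc3b value of 3066 lay below the other 7 (4661 to 6076), with a gap of 0.530 of the range.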

How the results depend on the processing

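In C26 vs CT 9305 genes were called, 9049 to 9399 without 1 library and 9276 to 10509 under the other alternatives; 8 members were called (7 to 8 and 8 to 9). In C26-CHO vs CT 8739 genes were called (8428 to 8950 and 8459 to 9492) with 6 members (6 in each omission and 6 to 8). In C26-CHO vs C26 99 genes were called, 10 with only the 2 groups in the fit, 327 with DESeq2 and 23 (without C26-CHO 7) to 273 (without C26-CHO 3) without 1 library; no member was called under any of these. Quantile normalization turned Sqstm1 (0.21) and Lamp2 (0.31) to higher in C26 vs CT and Lamp2 to -0.049 in C26-CHO vs C26. Lamp2 in C26-CHO vs CT, near 0, was -0.00063 in DESeq2 and ran from -0.029 to 0.016 without 1 library. The causes were not tested. Of 1836 list counts, 36 moved by over 1.5 times, or to or from 0. A count that stayed at 0 was scored as not moved. In C26-CHO vs C26 only 1 gene of the lists was called in the main fit, so that score says little there. Whether replicate numbers pair the samples is not settled by these values. The correlation of same-numbered deviations ran from -0.204 to 0.255 over 24 pairs, 9 of them over 0.1 and 3 under -0.1. A library matched its own number best in 9 of 48 cases, with 8 libraries to choose from each time. The fit with the replicate block called 9643 genes for C26 vs CT, 97 for the resin within tumour mice and 9079 for C26-CHO vs CT, with 8, 0 and 6 members. Depth limits Tfeb most, with 134 reads in 1 library.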

Other observations

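Some genes of the pathway lists with large changes in C26 vs CT were not among those named by rule, and are given here after their values were seen. Ddit4, an inhibitor of mTORC1 that responds to stress hormones and low oxygen, rose with a log2 difference of 2.46 (SE 0.444, with levels of 236 ± 259 in CT and 886 ± 252 in C26, SD, n = 8), the largest among the TFEB and mTORC1 control genes. Sesn2, a leucine-sensing inhibitor of the same complex, rose with 0.64. The relatives of Tfeb moved the other way from it, with Mitf at 0.77 and Tfe3 at 0.55. Retreg1, a receptor for autophagy of the endoplasmic reticulum, rose with 1.15, against -1.15 for Calcoco1 in the same list. Atg10, an enzyme of the conjugation step, fell with -0.81, and Prkaa2, a catalytic subunit of the energy sensor AMPK, with -0.86. Ddit4, Sesn2, Mitf, Tfe3, Retreg1, Calcoco1, Atg10 and Prkaa2 were all called in limma at an adjusted p under 0.05. In this contrast 66.3% of all tested genes were called, and these were picked for their large changes.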
